A study of Homo sapiens with 3 samples.

Results

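Messenger RNA of 8 mismatch and excision repair genes was compared between A2780 cells with exogenous miR-181a and A2780 cells with an empty vector. The genes were MSH6, MSH3, PMS2, PMS1, MLH3, EXO1, ERCC1 and ERCC4, and they were taken by symbol, not by their values. They are 8 of the 18674 genes with a value in all 3 libraries, and they have 15 of the 28848 RefSeq transcripts with such a value. A2780 is an established cell line from an undifferentiated ovarian tumour. The compared libraries were miR-181a pool 1 and miR-181a pool 2, cells stably expressing miR-181a (labelled p181a#1 and p181a#2, 1 library each), and the control, cells with the pBABE vector (1 library). In the labels these cells are 2 polyclonal pools by the extraction protocol and clones 1 and 2 by the sample characteristics and the series description, and the promoter behind miR-181a is not given in the sources used here. All p-values rest on the spread between these 2 derived lines, with 1 library of each and 1 library of the control.

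Mismatch repair corrects bases that were paired wrongly during DNA replication. The MutS proteins MSH6 and MSH3 serve to recognise the error, MSH6 mainly at single mispaired bases and MSH3 at larger loops. PMS2, PMS1 and MLH3 are MutL proteins, which act once the error is recognised, and the exonuclease EXO1 removes the strand with the error. ERCC1 and ERCC4 (also called XPF) form a nuclease that cuts the strand 5 prime of the damage in nucleotide excision repair and also acts on crosslinks between strands. Both pathways bear on the response of ovarian cancer cells to platinum drugs, whose adducts ERCC1 and ERCC4 help to remove.

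The series asks for genes that miR-181a acts on, so its sequence and its matches in the 8 genes are shown first. A microRNA binds mainly through its seed, bases 2 to 8, which are in capitals here, and the sequence is from RefSeq (GRCh38.p14).
miR-181a-5p: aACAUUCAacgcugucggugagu
Matches were sought on the transcript strand in 1 transcript per gene of the GENCODE annotation on GRCh37. They were TGAATGT, opposite bases 2 to 8, and GAATGTA, opposite bases 2 to 7 and followed by an A. An 8-mer holds both, which then overlap. In the 3 prime untranslated regions 0 of the 8 genes had either, against 26.3% of the 12302 tested genes with such a region. A 6-mer, GAATGT, was present there in ERCC1 alone among the 8, against 38.9% of those genes. A search of the coding sequences was added after that result. It found a match in 4 of the 8 genes, MSH6, PMS1, EXO1 and ERCC1, against 17.2% of the 12302 genes. Among the 1666 genes with a coding length of 2541 to 4362 bases, which covers the members other than ERCC1, the share was 28.8%. The match of PMS1 was an 8-mer, which 3.46% of the 12302 coding sequences and 5.16% of the 1666 held. The 4 coding matches are given because PMS1 passed the test below; capitals mark the match and each stretch lies within 1 coding exon.
PMS1, chr2:190738328-190738357, plus strand, exon 12 of 13: aaatgcaaaggaagtttaTGAATGTAgacc
MSH6, chr2:48033591-48033620, plus strand, exon 9 of 10: gcatgcatggtagaaaaTGAATGTgaagac
EXO1, chr1:242052847-242052876, plus strand, exon 16 of 16: aggatatatttaacaaaccTGAATGTggcc
ERCC1, chr19:45917263-45917292, minus strand, exon 8 of 10: gtgacTGAATGTctgaccaccgtgaagtca
These matches describe the sequence only, and binding was not measured.

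The values are coverage, the median read density over sliding windows of 50 bp along a transcript, so levels of different genes can be set side by side. Without counts the depth cannot be known, and a transcript with no reads in most of its windows has a median of 0. The pBABE library stood apart: 12.8% of its transcripts were at 0, against 32.3% in pool 1 and 32.2% in pool 2. Of the 8822 transcripts at 0 in both pools, 5549 (62.9%) were above 0 in pBABE. All but 1 of the marker lists had a higher sum in pBABE. Of 10 ovarian carcinoma lineage markers, 7 were at 0 in both pools, among them PAX8, ESR1, WT1 and SOX17, and WT1 and SOX17 were also at 0 in pBABE. Their summed coverage was 0.679 in pool 1 and 1.21 in pool 2, against 143.5 in pBABE, where ESR1 alone had 103.8. The sums were 20.7 and 19.8 against 201.9 for 10 epithelial markers (5 at 0 in both pools, EPCAM among them, and 2 of the 5 also in pBABE), and 2.76 and 2.44 against 77.2 for 10 immune markers (7 at 0 in both pools and 3 of these also in pBABE). They were 0.282 and 0.201 against 239.9 for 8 endothelial markers (6 at 0 in both pools, none of them in pBABE). For 10 fibroblast markers (2 at 0 in both pools, 1 of them also in pBABE) they were 1858 and 1507 against 630.4, of which COL3A1 made up 985.6 and 716.7 against 249.1. The fibroblast markers were not of 1 direction: of 8 tested, 5 were higher and 2 lower in both pools, among them COL1A1 with 0 and 0.706 against 7.41 in pBABE. The part of these marker levels, and of the excess of low and silent transcripts, in the differences below was not tested. In genes with a pool mean above 50, the median log2 fold was 0.64 in pool 1 and 0.30 in pool 2. Choosing genes by the pool mean favours positive folds, and with a mean above 50 over all 3 libraries the medians were 0.55 and 0.21. A small positive fold can thus lie below the shift of well covered genes, which need not hold for genes of lower coverage.

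Of the 8 genes, MLH3 rose and PMS1 fell by limma at an adjusted p under 0.05. Among all 12552 genes tested, 1.00% rose and 21.7% fell. All 8 genes passed the filter on low values, and none was at 0 in any library. By size, MLH3 was at least 1 log2 unit higher in both pools, as 2.53% of all genes were, and PMS1 at least 1 log2 unit lower, as 27.3% were. Above pBABE in both pools were 5 of the 8 (44.6% of all genes) and below it in both 2 (41.8%). The median log2 fold of the 8 was 0.33, against 0.07 over all tested genes. In a bulk library, fewer cells of a kind and less RNA per cell cannot be told apart.

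**Figure D1:**
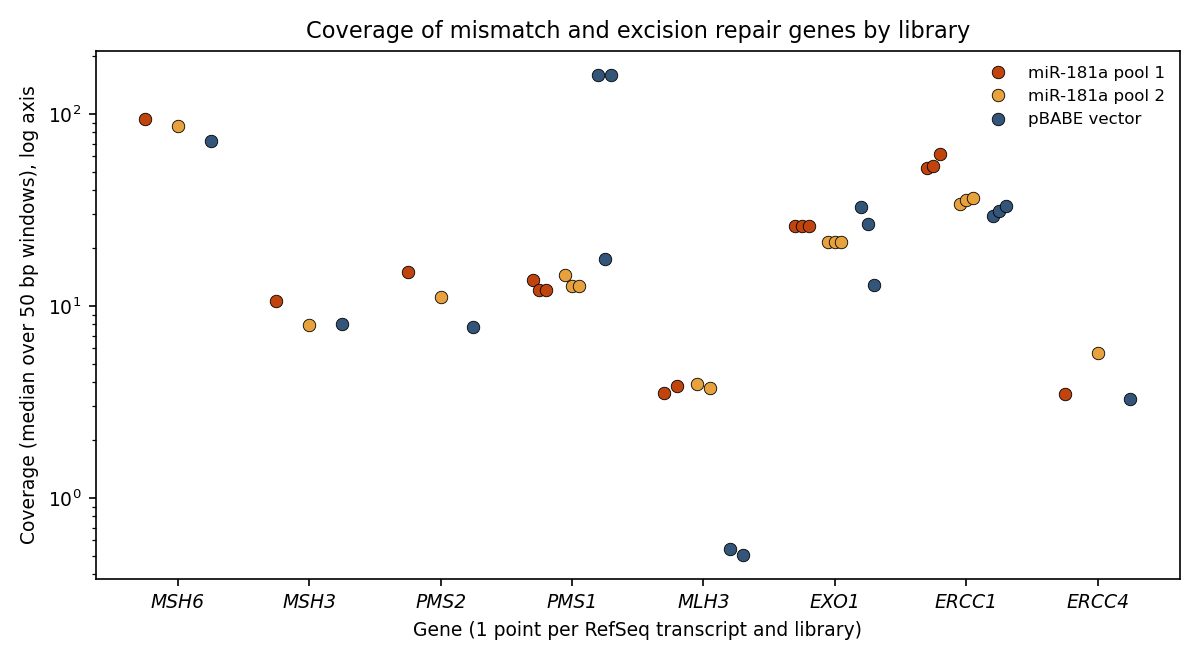
Coverage (log axis) of the 8 genes, with 1 point for each RefSeq transcript in miR-181a pool 1, miR-181a pool 2 and pBABE. MLH3 has both transcripts near 3.5 to 3.9 in the pools and near 0.5 in pBABE, and 2 of the 3 PMS1 transcripts stand near 160 in pBABE.

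**Figure D2:**
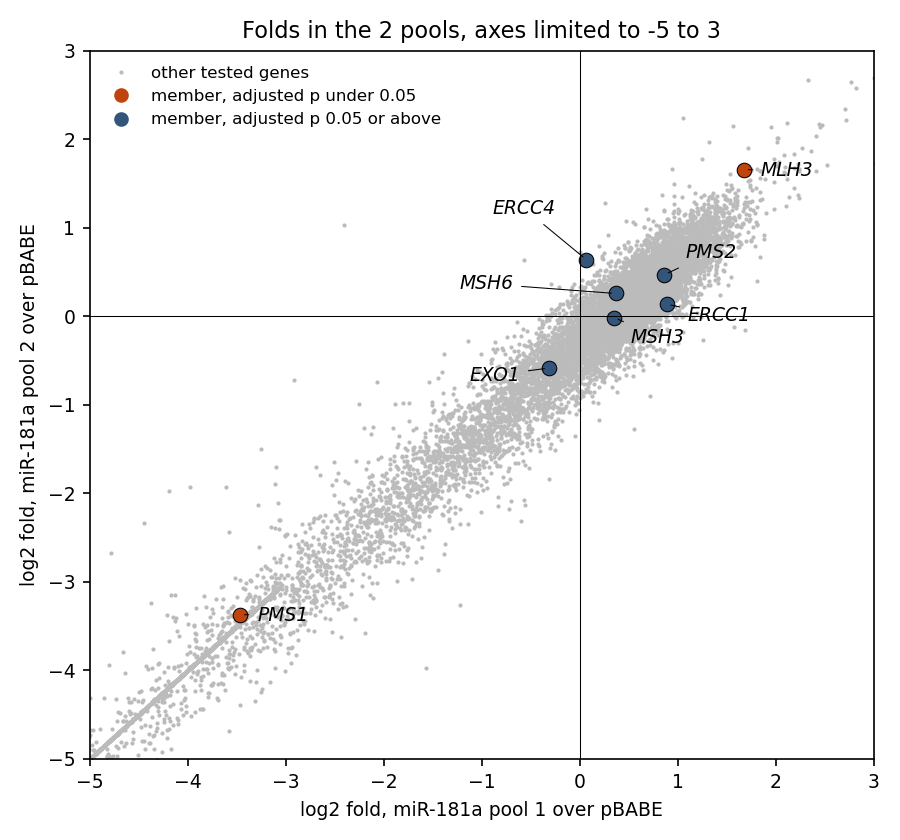
Log2 fold over pBABE in pool 1 (horizontal) and pool 2 (vertical) for all tested genes within -5 to 3 (514 lie outside), with the 8 genes named and those past the limma test in red. The straight line of points at the lower left is genes at 0 in both pools. MLH3 stands at 1.68 and 1.66 and PMS1 at -3.46 and -3.37, away from the other 6 genes.

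MSH6, the MutS subunit for single mispaired bases (NM_000179, chromosome 2, 47922669 to 48037202, plus strand, protein coding, here and below on GRCh37), was the most abundant of the 8 genes in the pools. Its coverage was 93.6 in pool 1 and 86.9 in pool 2, against 72.5 in pBABE. Both pools were above pBABE, and its log2 fold was 0.31 (SE 0.18), which did not pass (limma adjusted p = 0.34). MSH3, the subunit for larger loops (NM_002439, chromosome 5, 79950471 to 80172634, plus strand), had 10.6 in pool 1 and 7.97 in pool 2, against 8.06 in pBABE. The pBABE value lay between the pools, and the log2 fold was 0.17 (SE 0.32, limma adjusted p = 0.73). MSH6 exceeded MSH3 by a coverage ratio of 8.87 in pool 1 and 10.9 in pool 2, against 8.99 in pBABE, so their balance in pBABE was within the range of the pools. No step that marks strand is described, so reads of overlapping genes cannot be told apart. In the annotation 530 exonic bases of MSH6 overlap FBXO11 on the other strand. FBXO11 had 44.2 and 33.3 in the pools, against 25.8 in pBABE.

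PMS2, the MutL subunit of the main mismatch repair endonuclease (NM_000535, chromosome 7, 6010556 to 6048761, minus strand), had a coverage of 15.0 in pool 1 and 11.1 in pool 2, against 7.77 in pBABE. Both pools were above pBABE, pool 1 more so, and the log2 fold of 0.67 (SE 0.35) did not pass (limma adjusted p = 0.32). Pool 1 was also the higher over all tested genes, with a median log2 fold of 0.24, against -0.12 in pool 2. The part of this in the PMS2 spread was not tested. The annotation holds 12 genes with PMS2-derived names, and 0 of them have values in the table under those names. How reads shared with them were counted is not given in the sources used here, so the PMS2 level is uncertain.

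MLH3, the MutL subunit best known for its work in meiotic recombination (chromosome 14, 75480472 to 75518235, minus strand), was the 1 gene of the 8 to rise on the deposited scale. Its transcript NM_014381 had 3.81 in pool 1 and 3.75 in pool 2, against 0.505 in pBABE. Its other transcript, NM_001040108, had 3.54 and 3.92, against 0.543 in pBABE. Both transcripts were higher in both pools, by coverage ratios of 6.51 to 7.54. The log2 fold of NM_014381 was 1.67 (SE 0.014, limma adjusted p = 0.000254), and this small SE reflects how close the pools were. At such low coverage the log2(coverage + 1) scale gives a smaller fold than the coverage ratios do. The log2 fold was 2.68 with a pseudocount of 0.1 and 0.39 with a pseudocount of 10, so the size of the change is uncertain. MLH3 passed in all 11 alternatives in which it was tested, no filter and both shifts among them, with a limma adjusted p of 5.69e-07 to 0.017. The filter lay at a mean of 2.44 over the 3 libraries, which MLH3 passed through its pool values, not its pBABE value. Of 3771 transcripts with a pool mean within 2-fold of that of MLH3, 28 (0.743%) had as low a share of it in pBABE. PMS2 exceeded MLH3 by a coverage ratio of 3.93 in pool 1 and 2.97 in pool 2, against 15.4 in pBABE.

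PMS1, a MutL subunit whose part in human mismatch repair is unclear (chromosome 2, 190648811 to 190742355, plus strand), fell by the test, and its 3 transcripts differed in how far. NM_000534, the transcript tested, had 13.6 in pool 1 and 14.6 in pool 2, against 159.9 in pBABE, and its log2 fold was -3.42 (SE 0.21; limma adjusted p = 0.013). NM_001128144 had 12.1 and 12.8, against 158.8 in pBABE, a log2 fold of -3.57. NM_001128143 had the same 12.1 and 12.8 in the pools, against 17.5 in pBABE, a log2 fold of -0.46. All 3 were lower in both pools, but with the transcript of lowest pBABE value used for every gene, chosen after the data were seen, PMS1 no longer passed (limma adjusted p = 0.38). Over the 12 alternatives with a test its limma adjusted p ran from 1.4e-81 to 0.38, and it passed in 11. The lowest came with well covered genes of the pools used for a shift, at a log2 fold of -3.89. With 1 residual degree of freedom, so low a value rests on variance shared across genes. It does not measure the spread of PMS1 or of the 1 control library. Of 7360 transcripts with a pool mean within 2-fold of that of NM_000534, 67 (0.910%) had as high a pBABE value relative to the pools. By the same measure the share was 0.764% for NM_001128144 but 19.2% for NM_001128143, so it depended on the transcript. This fall is also in the direction of the pBABE excess, whose part was not tested.

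**Figure D3:**
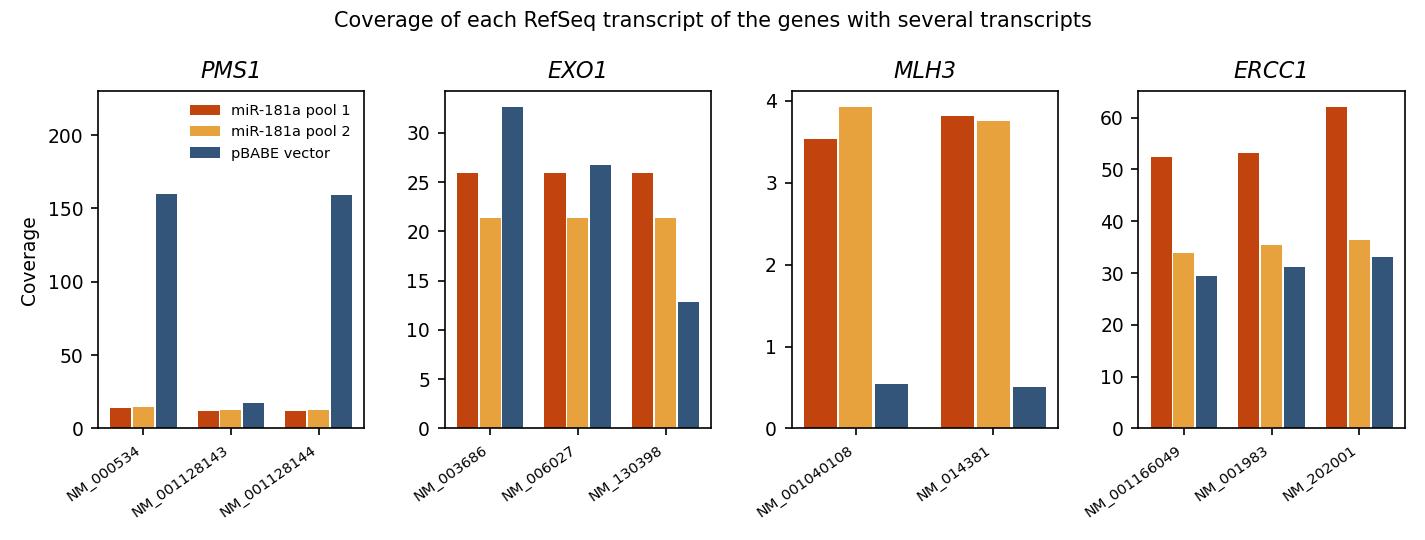
Coverage of every RefSeq transcript of PMS1, EXO1, MLH3 and ERCC1 in pool 1, pool 2 and pBABE, on a linear axis for each gene. The 3 EXO1 transcripts have equal values in the pools and pBABE values from 12.9 to 32.6, while those of MLH3 and ERCC1 keep 1 direction.

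EXO1, the exonuclease of mismatch repair (chromosome 1, 242011269 to 242058450, plus strand), had no settled direction. All 3 of its transcripts had 26.0 in pool 1 and 21.4 in pool 2. In pBABE the values were 32.6 for NM_003686, 26.7 for NM_006027 and 12.9 for NM_130398. The pools were below pBABE by the first and second transcripts and above it by the third, with log2 folds of -0.45, -0.17 and 0.83. The transcript tested, NM_003686, did not pass (SE 0.27, limma adjusted p = 0.35). Transcripts of 1 gene that share their values in both pools but not in pBABE were common in the table. Of 1408 such groups of transcripts, equal and above 0 in both pools, 1103 (78.3%) differed in pBABE, by a median ratio of highest to lowest of 1.13 over the groups. Groups equal in pBABE and in pool 1 differed in pool 2 in 16.9%, and groups equal in pBABE and pool 2 differed in pool 1 in 15.9%. Whether the pBABE values were counted in the same way as those of the pools is not given in the sources used here, and every fold over pBABE, that of PMS1 included, assumes that they were. The ratio was 2.53 for EXO1, which 16.4% of the 1408 groups reached, and 9.08 for the 2 PMS1 transcripts with equal pool values, which 4.55% reached.

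ERCC1, the subunit that places the nuclease on DNA (NM_202001, chromosome 19, 45910592 to 45982086, minus strand), had a coverage of 62.1 in pool 1 and 36.4 in pool 2, against 33.1 in pBABE. Its other transcripts gave 52.4 and 53.2 in pool 1 and 33.8 and 35.4 in pool 2, against 29.5 and 31.2 in pBABE. Pool 1 stood well above the other libraries and pool 2 just above pBABE, and the log2 fold of 0.51 (SE 0.47) did not pass (limma adjusted p = 0.51). In the annotation 1593 exonic bases of ERCC1 overlap POLR1G, an RNA polymerase I subunit gene on the other strand, named CD3EAP in the table. It had 38.0 and 23.9 in the pools, against 16.9 in pBABE, with the same order of libraries as ERCC1. ERCC4, the subunit with the active nuclease (NM_005236, chromosome 16, 14013995 to 14046205, plus strand), had 3.48 in pool 1 and 5.68 in pool 2, against 3.29 in pBABE. Here pool 2 was the high library and pool 1 lay close to pBABE, and the log2 fold was 0.35 (SE 0.34, limma adjusted p = 0.52). The coverage ratio of ERCC1 to ERCC4 was therefore 17.8 in pool 1 and 6.41 in pool 2, against 10.1 in pBABE, and the pBABE ratio lay between the pools.

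The order of the 8 genes was nearly the same in the pools. MSH6 led, followed by ERCC1 and EXO1, then PMS1 (14.1 ± 0.69), PMS2 (13.0 ± 2.70) and MSH3 (9.27 ± 1.83), and last ERCC4 (4.58 ± 1.56) and MLH3 (3.78 ± 0.043; each mean ± SD, n = 2). PMS1 and PMS2 changed places between the pools, as did ERCC4 and MLH3, so neither pair differed beyond its spread. In pBABE PMS1 stood first by its highest transcript, ahead of MSH6, and MLH3 was last.

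How far the 8 genes stood from pBABE depended on the scale. The median log2 fold of the 8 was 0.75 with library medians set equal, and it was -0.049 and -0.14 after 2 shifts. These subtract from each pool its median log2 fold in well covered genes, those with a mean above 50 either in all 3 libraries or in the pools. MSH6, MSH3 and ERCC4 turned negative under both shifts, and PMS2 (0.29 and 0.20) and ERCC1 (0.13 and 0.042) came close to 0. MLH3 stayed at 1.29 and 1.20 and passed under both. EXO1 fell under both (-0.83 and -0.92), by its transcript NM_003686, with a limma adjusted p of 0.000135 and 1.85e-05, over a range to 0.95 across its 12 alternatives with a test. With library medians set equal, 6 of the 8 genes rose, MLH3, PMS2, ERCC1, ERCC4, MSH6 and MSH3, beside 6355 of the 12552 genes. The genes whose folds in both pools were closest to the median of the 8 (0.36 in pool 1 and 0.20 in pool 2) were FBXO30, CASKIN1 and SAP30BP, at distances of 0.0050, 0.012 and 0.014 log2 units over the 2 folds. Within 0.1 of that median lay 254 genes, so such likeness is common with 3 libraries.

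**Figure D4:**
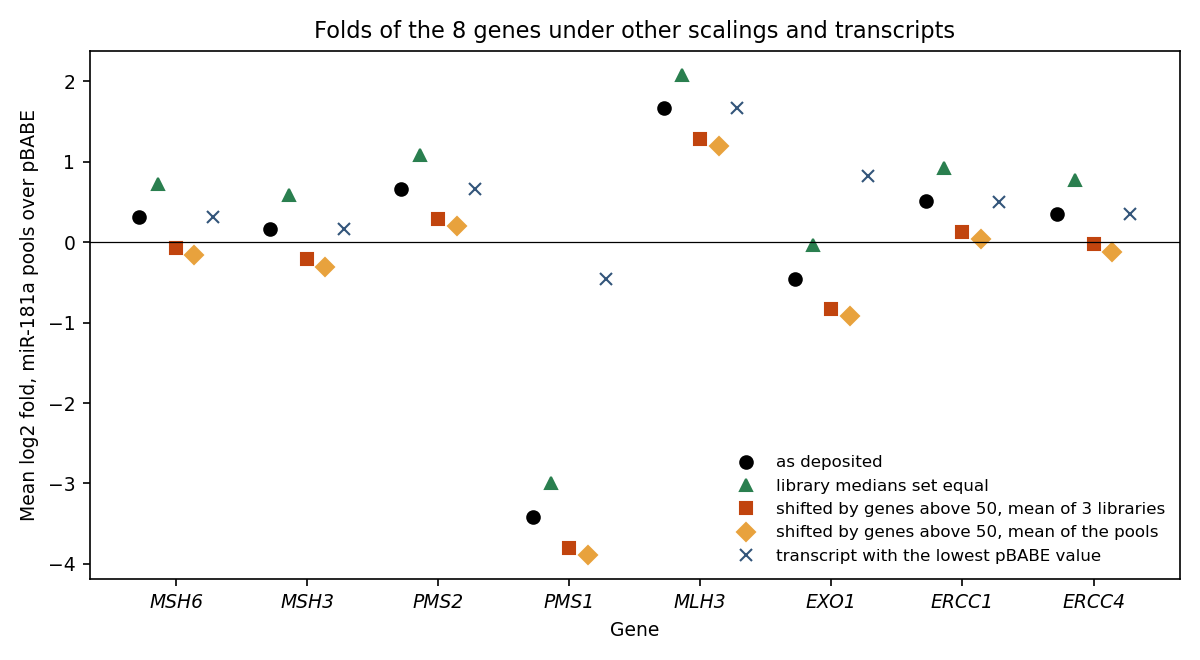
Mean log2 fold of the pools over pBABE for each of the 8 genes as deposited, under 3 other scalings, and with the transcript of lowest pBABE value. MLH3 lies above 0 under all 5 settings, from 1.20 to 2.08, EXO1 turns positive and PMS1 moves to -0.46 with the other transcript.

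The other genes of these pathways were counted from lists of mismatch excision and resynthesis, nucleotide excision repair, base excision repair and direct reversal. Of 20 mismatch repair partners, which include the clamp, clamp loader and polymerase genes of resynthesis, 19 were tested and MSH4 was at 0 in all 3 libraries. Of the 19, 18 were higher in both pools, against 44.6% of all tested genes. By limma 0 rose, also at an unadjusted p under 0.05, and 1 fell, against 1.00% and 21.7% of all tested genes. The median log2 fold was 0.44, and it was 0.060 and -0.030 after the 2 shifts, when 8 and 6 genes were higher in both pools. The highest folds were those of MTMR15, the nuclease now called FAN1, with 22.6 and 17.0 in the pools against 8.33 in pBABE, and MSH5, a meiotic MutS protein, with 14.6 and 15.8 against 7.03. Neither passed (limma adjusted p = 0.19 and 0.17). The 4 MTMR15 transcripts had log2 folds from -0.095 to 1.14, and 3 of the 4 were higher in both pools. RFC1 of the clamp loader stood lowest among those above pBABE, with 41.7 and 38.2 in the pools against 38.1.

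In nucleotide excision repair 23 genes were listed, 22 had a pBABE value and 21 were tested. XPA and CDK7 fell and 0 rose by limma, beside 21.7% and 1.00% of all tested genes. Also at an unadjusted p under 0.05, 0 rose. The median log2 fold was 0.39 (0.014 and -0.076 after the 2 shifts). XPA, which binds damaged DNA and recruits the ERCC1 nuclease, had 7.96 in pool 1 and 7.48 in pool 2, against 73.5 in pBABE, a log2 fold of -3.10 (limma adjusted p = 0.025). CDK7, a kinase of the repair and transcription factor TFIIH, had 14.2 and 10.2, against 112.8 in pBABE, a log2 fold of -3.12 (limma adjusted p = 0.037). XPA passed in 12 of 12 alternatives and CDK7 in 10 of 12. Of transcripts with a pool mean within 2-fold of theirs, 1.83% and 1.29% had as high a pBABE value relative to the pools. GTF2H3 and GTF2H4, subunits of TFIIH, had the highest folds at 1.05 and 0.87 and did not pass (limma adjusted p = 0.28 and 0.19). ERCC2, a TFIIH helicase, has a blank pBABE value. Its 2 transcripts had 34.3 and 32.2 in pool 1 and 25.3 and 23.4 in pool 2.

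All 23 base excision repair genes were tested, and 1 rose and 2 fell, beside 1.00% and 21.7% of all tested genes. The median log2 fold was 0.33 (-0.053 and -0.14 after the 2 shifts). NEIL3, a glycosylase that removes oxidised bases, rose, with 4.89 and 5.10 in the pools against 2.28 in pBABE, a log2 fold of 0.87 (limma adjusted p = 0.016). Like MLH3, it passed the filter, at a mean of 2.44, through its pool values, not its pBABE value. It passed in 7 of 11 alternatives and did not after the 2 shifts (limma adjusted p = 0.24 and 0.35, over a range of 0.000286 to 0.35). POLB, the gap-filling polymerase, fell, with 4.59 and 4.56 in the pools against 56.8 in pBABE (log2 fold -3.37, limma adjusted p = 0.022). PARG, which removes poly(ADP-ribose), fell, with 10.5 and 9.42 against 51.1 (log2 fold -2.25, limma adjusted p = 0.046). POLB passed in 12 of 12 alternatives and PARG in 10 of 12, and as high a relative pBABE value was found in 2.31% and 3.45% of transcripts of like pool mean. MUTYH, a glycosylase that removes adenine paired with oxidised guanine, showed the same dependence on the transcript as EXO1. Its 6 transcripts had 17.0 to 17.4 in pool 1 and 10.3 to 10.5 in pool 2, against 9.06 to 102.9 in pBABE, with log2 folds from -2.86 to 0.53. NEIL1 had 11.8 and 12.6, against 6.67 in pBABE, and did not pass (limma adjusted p = 0.21). Of the 3 direct reversal genes 0 passed by limma, also at an unadjusted p under 0.05. MGMT, which takes alkyl groups off guanine, had 17.8 in pool 1 and 9.89 in pool 2, against 3.28 in pBABE, a log2 fold of 1.74 (limma adjusted p = 0.18), and ALKBH2 had a log2 fold of 0.35.

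**Figure D5:**
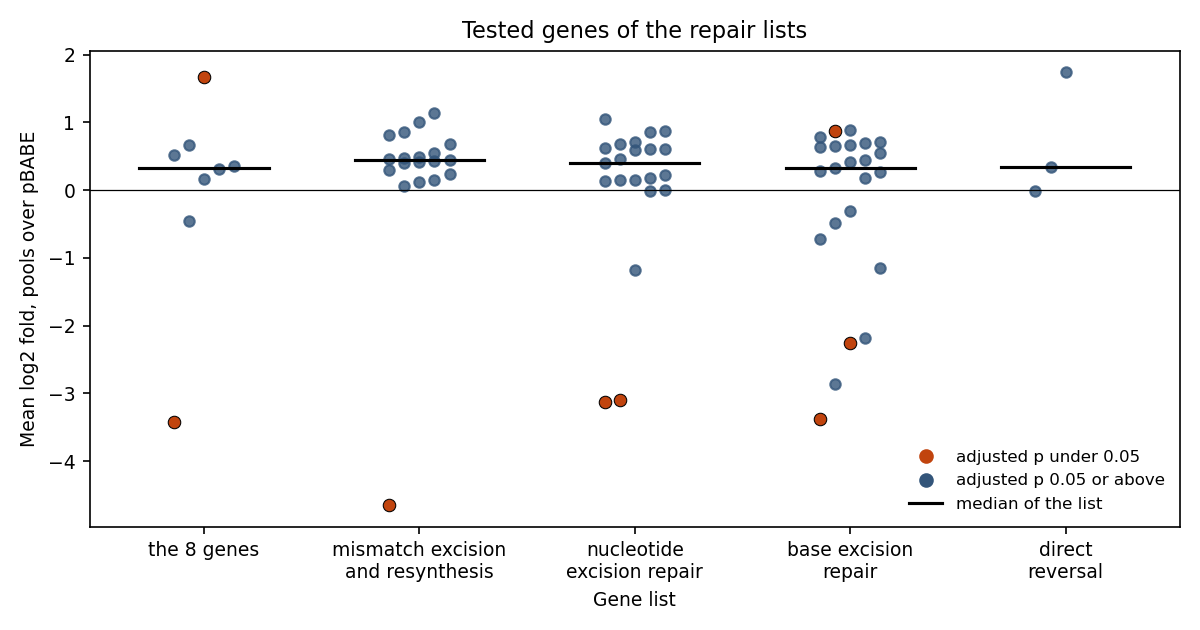
Mean log2 fold of the pools over pBABE for the tested genes of the 8 and of the 4 other repair lists, with genes past the limma test in red and the median of each list as a line. The medians lie between 0.33 and 0.44, and 5 of the 6 list genes outside the 8 that passed lie below 0. Among all tested genes 1.00% rose and 21.7% fell.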

How the data were processed

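RNA from 3 A2780 libraries was enriched for poly-A RNA and sequenced on an Illumina HiSeq for 100 nt reads, which the authors mapped to hg19, per the labels' protocols. The deposited coverage signal is the authors' median over sliding 50 bp windows per RefSeq transcript. Logs and quantile normalization are named there too, but the columns are linear with unequal quantiles, so no common scaling was assumed. The aligner is not given in the sources used here.

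Of 29156 transcripts, 308 have a blank pBABE value and were left out, and 54 symbols turned into dates were restored by accession. The transcript with the highest mean over the 3 libraries stood for its gene. Of the genes not at 0 everywhere, the lowest 25% by mean were left out and the other 12552 fitted with limma 3.58.1 in R 4.3.3 on log2(coverage + 1), with a variance trend and Benjamini-Hochberg adjustment over all of them at 0.05. Its 1 residual degree of freedom comes from the pools, and the pBABE library is assumed to vary like them. The fit was also run on simulated data in which all 3 libraries had the spread between the pools. That run therefore cannot speak for the spread of the real pBABE library. Annotation was GENCODE 44 lifted to GRCh37, the assembly of hg19, and 98.0% of tested genes matched a 3 prime untranslated region.

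The 8 genes and the lists were chosen with earlier results of these data known. Named from the lists were genes past the test and the 2 highest and 2 lowest of those with 1 sign of fold in both pools, ranked by the smaller of the 2 folds. Alternatives covered filter, pseudocount, scaling, transcript, variance trend and each pool left out. Results for some genes of the lists and for 1 overlapping gene are not reported here.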

Additional observations from a re-analysis of the deposited data

How the results depend on the processing

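No paired analysis was possible because the pBABE library carries no replicate number and stands alone. The cause of each move below was not tested. Of 12552 genes, 126 rose and 2725 fell. With no filter 278 rose and 5626 fell, with a filter at the median 402 and 1476, and among genes above 0 in both pools 447 rose. With medians set equal 6355 rose and 3701 fell (63.2% of calls upward, against 4.42%). After the shifts by genes above 50 in all 3 libraries and in the pools, 1039 and 710 rose and 5390 and 5784 fell. Of the 8 genes, 1 rose and 1 fell. With a filter at the median 5 were tested and 0 rose or were 1 log2 unit higher, with medians set equal 6 rose and 2 were 1 log2 unit higher, and with a pseudocount of 10 there were 0 of the latter kind. After either shift 2 fell. With the transcript of lowest pBABE value, chosen after the data were seen, 0 fell or were 1 log2 unit lower. The median fold of the 8, 0.33, was 0.21 with a pseudocount of 10, 0.75 with medians set equal, -0.049 and -0.14 after the 2 shifts, and 0.20 to 0.36 with each pool left out. Under the 2 shifts MSH3 was at -0.21 and -0.30, MSH6 at -0.069 and -0.16 and ERCC4 at -0.028 and -0.12. MSH3 was at -0.014 without pool 1 and 0.35 without pool 2, and EXO1 at 0.83 with the transcript of lowest pBABE value. Of the list genes outside the 8, 1 rose and 5 fell. With a filter at the median 4 rose, with a pseudocount of 0.1 0 rose, with medians set equal 52 rose and 9 fell, and after the 2 shifts 7 and 4 rose and 12 and 14 fell. Over results and alternatives, 171 of 219 values were classed as unchanged. For a count this meant staying within a fixed ratio of the main count, and for the median of the 8 within the spread between the pools. For a single gene it meant keeping its direction and its side of the threshold. With a pool left out, a single gene could leave this class only by a reversed sign, so those values cannot show stability of size. With 1 control library and no counts, neither depth nor the variation of pBABE can be given.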
